A study of Mus musculus with 21 samples.

Results

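Mammary tumours labelled as relapsed under BYL719 were compared with tumours of vehicle-treated mice, which took in 14 of the 21 tumours of the series, 7 in each group. Every tumour came from WAP-Cre/PIK3CA-H1047R mice, in which the promoter of whey acidic protein, a milk gene, drives the Cre recombinase and with it the H1047R mutant of PIK3CA in mammary epithelium. Vehicle mice had received DMSO (treatment label DMSO), and the relapse tumours came from mice given BYL719 (label BYL719_Relapse), also called alpelisib, an inhibitor of the PI3K-alpha catalytic subunit. The other 7 tumours (label BYL719_Stable) entered the fit for its estimate of the spread. No label gives the age of the mice, the length of treatment or the time of collection, and the series' design text speaks of responding where the sample labels have relapse, so the sample labels were followed. The genes reported here are those outside the PI3K and FOXO, sterol and fatty acid synthesis, skeletal muscle and smooth muscle lists, whose members were counted but are not described.

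PI3K-alpha makes the lipid second messenger through which insulin, insulin-like growth factors and other ligands activate AKT and mTOR in epithelial cells, and the H1047R mutant does so without a ligand. Mammary tumours hold luminal and basal epithelium, fibroblasts, vessels, fat and immune cells beside the cancer cells, and growth factor, WNT, hedgehog and NOTCH ligands act between these compartments. RNA was taken from ground whole tumours, so that fewer cells of a type and less RNA per cell cannot be told apart in any value below.

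Total counts ran from 21043399 to 24873844 per vehicle tumour and from 17722622 to 21431465 per relapse tumour. All 10 markers of mammary epithelium, among them Epcam, Krt8, Krt5 and Elf5, were measured, with a summed level of 4289 to 7301 CPM (counts scaled to library size and TMM factor) in vehicle and 2870 to 5961 CPM in relapse tumours. Vehicle 2, 6 and 7 stood apart, with high smooth muscle and myoepithelial RNA: the 10 markers of that list summed to 212 to 24300 CPM over the vehicle and 278 to 836 CPM over the relapse tumours. Skeletal muscle RNA was high in 6 of the 7 relapse tumours. The mean log2 CPM of its 13 markers, centred on all 21 tumours, was 2.42 to 4.198 in those 6, -3.19 in relapse 4, and -4.27 to -0.033 in the vehicle tumours. In these 2 marker lists no marker was at 0 counts in every tumour of a group. The sample titles carry a code of unstated meaning that took 3 values among the vehicle and 7 among the relapse tumours, so some vehicle tumours may share a mouse, and p-values measure the spread between tumours.

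Of 15792 genes tested with edgeR's quasi-likelihood F test, 1772 were called at a Benjamini-Hochberg adjusted p under 0.05, which is 11.2% of those tested. Of these, 856 (5.42%) were higher and 916 (5.80%) lower in relapse tumours, and 529 and 447 of them had changed at least 2-fold. The median log2 fold change over all genes was -0.02, and 0.038 with upper quartile scaling. With that scaling 953 were higher and 673 lower. Without vehicle 2, 6 and 7 the calls fell to 527 of 16081 genes (3.28%), 314 higher (1.95%) and 213 lower (1.32%), of which 209 and 133 were calls of the whole set. Leaving out vehicle 2 or vehicle 6 alone gave 1160 and 1156 calls. The count was close to these without relapse 3 (1224), vehicle 7 (1243) or relapse 6 (1256) alone. With the skeletal muscle score as a covariate, which nearly follows the groups, 23 genes were called (0.146%), 22 higher (0.139%) and 1 lower (0.00633%). With the counts of each title code summed, 955 genes were called (5.87%), of which 311 were higher (1.91%) and 644 lower (3.96%). Relapse tumours did not overlap with vehicle tumours for 241 genes that were higher (1.53%) and 234 that were lower (1.48%).

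**Figure D1:**
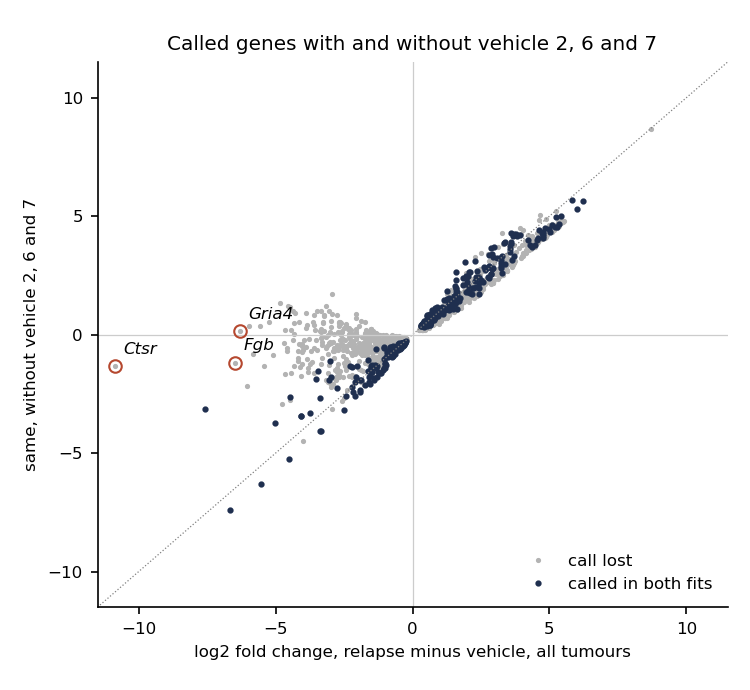
Log2 fold changes, relapse minus vehicle, of the genes called with all tumours (horizontal axis) against the same values without vehicle 2, 6 and 7 (vertical axis), one point per gene. Dark points are the 209 higher and 133 lower genes called in both fits, and grey points lost the call; Ctsr, Fgb and Gria4, labelled far to the left, lie between -1.33 and 0.14 on the vertical axis.

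Levels below are in CPM, which do not allow for gene length and so are compared between tumours only. They are given as the lowest, the median and the highest of the 7 tumours of a group, and fold changes are log2 values, relapse minus vehicle, with their standard error. The 15 genes with the largest changes among those that were also called both without vehicle 2, 6 and 7 and with the muscle covariate were all higher in relapse tumours, and none was lower. In all, 18 genes met these conditions, with log2 fold changes of 0.52 to 4.27. In 14 of the 18 the groups did not overlap, against 1.53% of all genes, higher in relapse. The 18 were chosen by calls between the same tumours, which favour such a separation, so this count tests nothing. Relapse 4 lay above every vehicle tumour in 18 of 18 (14.5% over all genes). Relapse 4 was the only relapse tumour within the vehicle range of the muscle score, so a call with that covariate leans on it, and nothing is read from its position in genes chosen by that call.

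The 3 of these genes with the lowest p-values for which RefSeq gives a promoter (GRCm38.p6, the assembly of mm10) were Rps6ka5, Auh and Zfp874b. Their promoters are printed from 250 bases before to 30 after the start, 5′ to 3′ on the minus strand of chr12:100725091-100725370, chr13:52929648-52929927 and chr13:67484224-67484503, to show the sequence from which the steadiest rises were transcribed. Capitals mark GTAAACA (a core motif of forkhead factors such as FOXO, searched with its reverse complement TGTTTAC) and TGACGTCA (the palindromic cAMP response element).
Rps6ka5: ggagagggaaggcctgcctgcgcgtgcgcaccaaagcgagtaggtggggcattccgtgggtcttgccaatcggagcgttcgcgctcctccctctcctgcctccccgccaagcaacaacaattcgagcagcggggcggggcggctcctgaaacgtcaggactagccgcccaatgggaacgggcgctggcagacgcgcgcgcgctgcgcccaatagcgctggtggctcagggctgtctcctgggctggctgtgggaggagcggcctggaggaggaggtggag
Auh: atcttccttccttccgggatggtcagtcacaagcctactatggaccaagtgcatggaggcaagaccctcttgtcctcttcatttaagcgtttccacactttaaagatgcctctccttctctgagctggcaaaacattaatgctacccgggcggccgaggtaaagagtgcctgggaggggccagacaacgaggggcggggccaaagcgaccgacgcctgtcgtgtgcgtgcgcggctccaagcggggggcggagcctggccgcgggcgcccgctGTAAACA
Zfp874b: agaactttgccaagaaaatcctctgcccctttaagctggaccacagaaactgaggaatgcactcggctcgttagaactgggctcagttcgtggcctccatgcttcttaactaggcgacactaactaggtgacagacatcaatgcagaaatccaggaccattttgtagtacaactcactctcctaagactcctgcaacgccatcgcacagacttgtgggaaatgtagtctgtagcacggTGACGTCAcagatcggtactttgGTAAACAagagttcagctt
The Rps6ka5 window held neither motif. The Auh window held GTAAACA from base 24 after the start, and the Zfp874b window held it from base 12 after the start and TGACGTCA from 12 bases before it; the motifs do not overlap. Windows of this length held the forkhead motif in 3.49% and the cAMP response element in 1.74% of all 32851 promoters, and in 3.00% and 3.26% of those of the 12222 tested genes with an entry. Of the 15 named genes, 10 had an entry, of which 2 held the former and 1 the latter. The motifs were chosen after the sequences had been seen, and a match is not a binding site.

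Rps6ka5 encodes MSK1, a nuclear kinase activated by ERK and p38. It stood at 12.6, 14.7 and 16.3 CPM in vehicle and 22.5, 24.6 and 30.03 CPM in relapse tumours, a log2 fold change of 0.85 ± 0.099 (adjusted p = 0.000197). Auh, a mitochondrial enzyme of leucine breakdown that also binds RNA, was at 16.5, 21.2 and 24.0 CPM in vehicle and 30.9, 36.3 and 43.9 CPM in relapse tumours (0.85 ± 0.10, adjusted p = 0.000197). The groups did not overlap in either gene. Pcmtd2, named for its methyltransferase domain, went from 69.8, 78.4 and 98.1 to 119, 144 and 175 CPM (0.86 ± 0.10, adjusted p = 0.000197), and Zfp874b, a zinc finger gene, from 12.9, 14.4 and 17.9 to 22.2, 30.9 and 39.6 CPM (1.07 ± 0.13, adjusted p = 0.000212). Klf11, a Krüppel-like transcription factor induced by TGF-beta, was at 13.4, 17.1 and 25.4 CPM in vehicle and 36.6, 40.9 and 50.4 CPM in relapse tumours (1.19 ± 0.16, adjusted p = 0.000393). In these 5 genes every relapse tumour lay above every vehicle tumour. Tcp11l2 rose by less, from 22.9, 28.6 and 33.9 to 36.5, 44.0 and 58.6 CPM (0.73 ± 0.12, adjusted p = 0.00176).

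The largest rise among the 15 was in a gene that was close to silent in vehicle tumours. Fgf23, on chromosome 6 (127072902 to 127082296), encodes the bone hormone that lowers phosphate uptake in the kidney. Its levels were 0, 0.107 and 0.458 CPM in vehicle and 1.06, 3.01 and 9.58 CPM in relapse tumours, with the highest value in relapse 4 (4.27 ± 0.72, adjusted p = 0.00211).

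Igf2, on chromosome 7 (142650768 to 142666816), encodes the imprinted growth factor that binds the IGF1 and insulin receptors. It stood at 1.14, 3.31 and 9.61 CPM in vehicle and 15.04, 26.1 and 47.2 CPM in relapse tumours (2.93 ± 0.52, adjusted p = 0.00262), with no overlap and the highest value in relapse 4. Ptch1, the hedgehog receptor and itself a target of that pathway, was at 36.4, 41.9 and 72.1 CPM in vehicle and 97.2, 122 and 182 CPM in relapse tumours (1.41 ± 0.19, adjusted p = 0.000501). Ankrd1, a nuclear ankyrin repeat protein often used as a readout of YAP, was at 0.915, 3.11 and 4.67 CPM in vehicle and 7.06, 17.4 and 33.1 CPM in relapse tumours (2.86 ± 0.41, adjusted p = 0.000653). All 7 relapse tumours exceeded all vehicle tumours in each of these 3 genes. The secreted protease Adamts6 rose from 3.02, 7.18 and 14.98 to 16.7, 42.7 and 69.5 CPM (2.42 ± 0.38, adjusted p = 0.00143) and the matrix glycoprotein thrombospondin 1, Thbs1, from 236, 391 and 635 to 636, 1403 and 1889 CPM (1.69 ± 0.28, adjusted p = 0.00208). Esm1, or endocan, a proteoglycan secreted by endothelial cells, was at 5.82, 7.66 and 14.6 CPM in vehicle and 11.52, 19.7 and 54.0 CPM in the relapse group (1.62 ± 0.34, adjusted p = 0.00673), and its call did not hold when the counts of each title code were summed (adjusted p = 0.0786).

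**Figure D2:**
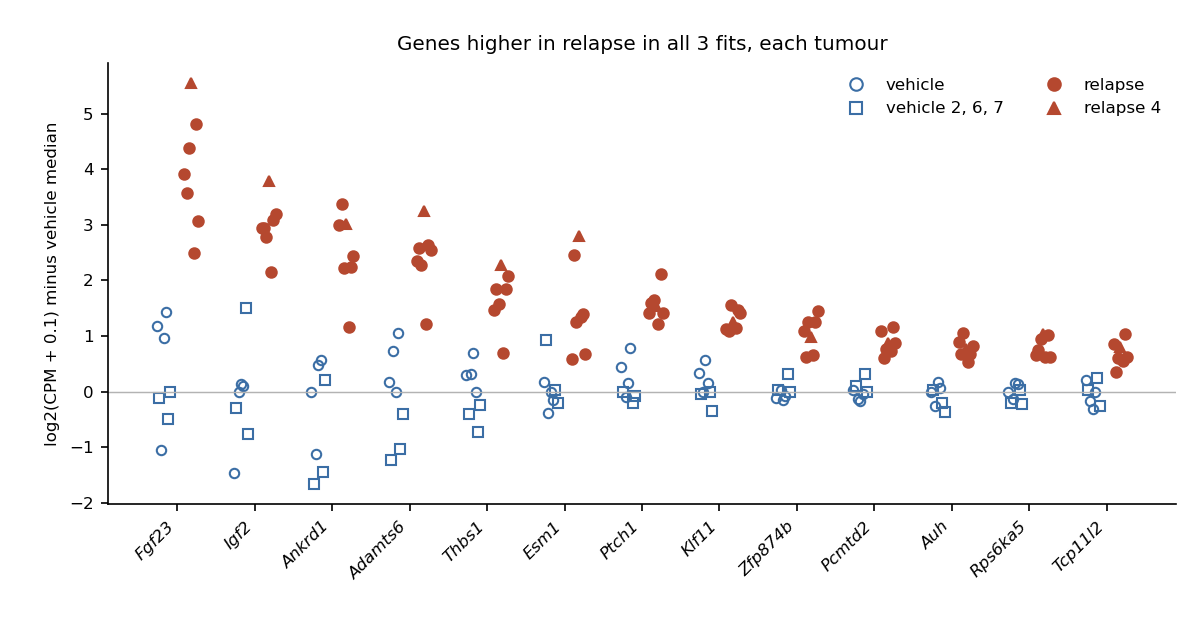
Level of 13 of the 15 genes in every tumour, as log2 of CPM plus 0.1 minus the vehicle median of that gene (vertical axis), for vehicle tumours (open circles, with vehicle 2, 6 and 7 as open squares) and relapse tumours (filled circles, with relapse 4 as a filled triangle). The groups are clear of each other in most genes. This separation and the position of relapse 4 above the vehicle tumours follow largely from how the genes were chosen.

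The codes in the titles of 2 relapse tumours also stood on a stable tumour. Between relapse and stable tumours edgeR called 0 genes, with 751 at an unadjusted p under 0.05, voom with quality weights called 0, and DESeq2 called 6, none of them among the 18. The lowest unadjusted p among the 18 was 0.00196 (adjusted p = 0.984). Fgf23 stood at 0.130, 1.59 and 4.29 CPM in stable tumours and its relapse minus stable log2 fold change was 1.28 ± 0.62. For Igf2 these values were 1.39, 10.7 and 30.5 CPM and 1.00 ± 0.48, for Ptch1 71.2, 107 and 148 CPM and 0.22 ± 0.19, and for Rps6ka5 29.2, 31.6 and 37.0 CPM and -0.32 ± 0.098. A difference between relapse and stable tumours was thus not detected in these genes, and the intervals do not show that the levels were alike.

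Because that rule left no lower genes, the largest changes called with and without vehicle 2, 6 and 7 were also taken, a choice made after the data had been seen. Wnt16, a WNT ligand, was at 0.0467, 0.0946 and 0.566 CPM in vehicle and 1.55, 2.54 and 24.3 CPM in relapse tumours (4.75 ± 0.77, adjusted p = 0.00167), with relapse 2 far above the rest. Sfrp4, a secreted frizzled-related protein that binds WNT ligands, stood at 1.17, 1.75 and 3.67 CPM in vehicle and 5.61, 18.2 and 49.6 CPM in relapse tumours (3.27 ± 0.48, adjusted p = 0.000892). The groups did not overlap in either. Penk, the enkephalin precursor, rose from 0.747, 1.92 and 6.83 to 16.0, 23.9 and 46.7 CPM (3.22 ± 0.61, adjusted p = 0.00398), and Pcdh20, a protocadherin, from 0.137, 0.348 and 0.467 to 1.03, 3.48 and 4.85 CPM (3.23 ± 0.45, adjusted p = 0.000584). Scn2a, a neuronal sodium channel, was at 0.457, 0.825 and 1.22 CPM in vehicle and 2.99, 6.26 and 9.36 CPM in relapse tumours (2.93 ± 0.51, adjusted p = 0.00256). Angptl1, a secreted angiopoietin-like protein, went from 0.411, 0.692 and 2.19 to 2.42, 12.6 and 23.3 CPM (3.71 ± 0.81, adjusted p = 0.00760). Relapse 4 was above every vehicle tumour for all 6 of these genes, and all 6 lost their call with the muscle covariate. With it the log2 fold change was 3.88 for Wnt16 (adjusted p = 0.0772), 2.40 for Sfrp4 (0.152), 2.97 for Penk (0.165), 2.99 for Pcdh20 (0.0640), 1.48 for Scn2a (0.428) and 2.44 for Angptl1 (0.411).

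Another 4 of the genes so chosen did not behave alike in relapse 4. Abra, an actin-binding protein of muscle, was at 0, 0.137 and 0.825 CPM in vehicle, at 0.0499 CPM in relapse 4 and at 3.87 to 17.9 CPM in the other relapse tumours (5.11 ± 0.95, adjusted p = 0.00359; 0.0888 with voom and quality weights and 0.0573 with voom and the title code). Slc8a3, a sodium and calcium exchanger, was at 0.150 CPM in relapse 4, against 1.94 to 11.8 CPM in the other relapse and 0.0457, 0.280 and 1.07 CPM in the vehicle tumours (3.60 ± 0.78, adjusted p = 0.00742; 0.0600 with summed counts). In both, relapse 4 was thus within the vehicle range, as it was for the skeletal muscle score. Lao1, an amino acid oxidase of milk, stood at 2.10, 4.63 and 15.8 CPM in vehicle and 6.38, 43.7 and 189 CPM in relapse tumours (3.37 ± 0.73, adjusted p = 0.00742; 0.0806 with summed counts), and relapse 4 was again the lowest relapse tumour. Fhl1, a LIM domain protein abundant in muscle, was at 3.70, 7.40 and 9.30 CPM in vehicle, 23.8 CPM in relapse 4 and up to 138 CPM elsewhere in the relapse group (3.57 ± 0.54, adjusted p = 0.00106), so that relapse 4 was the lowest relapse tumour but still above every vehicle tumour. All 4 lost their calls with the muscle covariate, but their folds moved unequally: Abra went to 0.69, Slc8a3 to 0.24 and Fhl1 to 1.54, whereas Lao1 stayed at 3.18. Every called gene named from here on except Terf1 and Wt1 also lost its call with it. Of the 104 called genes of the text that did so, 58 kept at least 80% of their log2 fold change, among them Klhl24 (0.88), Pcnt (0.54) and Lonrf1 (-0.68), and 14 kept under 50%.

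Genes that kept their call in all 25 alternative fits without a muscle term numbered 127 higher and 74 lower, and 12 of them were on the skeletal muscle list. Outside the lists left aside they were 95 higher and 65 lower. The higher ones of lowest p included, beside genes named above, Dnajc28, of the J-domain cochaperone family, at 7.32, 10.2 and 11.7 CPM in vehicle and 16.0, 20.9 and 28.9 CPM in relapse tumours (1.13 ± 0.15, adjusted p = 0.000387). Terf1, which binds telomere repeats, was at 29.98, 35.3 and 38.0 CPM in vehicle and 45.1, 50.3 and 56.1 CPM in relapse tumours (0.52 ± 0.071, adjusted p = 0.000501). Klhl24, a substrate adaptor of the cullin 3 ubiquitin ligase, was at 229, 281 and 294 CPM in vehicle and 369, 472 and 682 CPM in relapse tumours (0.90 ± 0.13, adjusted p = 0.000653). No relapse tumour fell into the vehicle range of these 3 genes. Mturn had a larger change, from 13.7, 19.98 and 25.2 to 30.8, 45.04 and 70.4 CPM (1.38 ± 0.19, adjusted p = 0.000535).

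Further genes of this kind were picked after their values had been seen. The Yippee-like family, small zinc-binding proteins, has 5 members here: Ypel1 (1.61 ± 0.32, adjusted p = 0.00477), Ypel2 (0.93 ± 0.16, adjusted p = 0.00256) and Ypel3 (0.81 ± 0.16, adjusted p = 0.00576) rose. Ypel4 (0.99, adjusted p = 0.166) and Ypel5 (-0.27, adjusted p = 0.101) did not pass the test. Bach2, a transcriptional repressor best known from lymphocytes, stood at 16.1, 19.9 and 29.3 CPM in vehicle and 27.7, 58.5 and 73.0 CPM in relapse tumours (1.33 ± 0.21, adjusted p = 0.00132). Samhd1, which breaks down deoxynucleotides, was at 102, 154 and 174 CPM in vehicle and 171, 255 and 292 CPM in relapse tumours (0.80 ± 0.14, adjusted p = 0.00210). In Bach2 and Samhd1 the lowest relapse tumour lay close to the highest vehicle tumour. Fam20a, a pseudokinase of the secretory pathway, had wider limits, with 21.1, 32.8 and 62.3 CPM in vehicle and 105, 198 and 363 CPM in relapse tumours and no overlap (2.31 ± 0.41, adjusted p = 0.00273). The centrosome scaffold gene Pcnt was at 87.9, 105 and 127 CPM in vehicle and 139, 156 and 182 CPM in the relapse group (0.54 ± 0.081, adjusted p = 0.00106) and the centriole gene Spice1 at 18.3, 23.8 and 27.8 CPM in vehicle and 27.5, 42.1 and 49.3 CPM in relapse tumours (0.78 ± 0.12, adjusted p = 0.00106); centrosome genes as a group were not counted.

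Outside those lists, among the lower genes that kept their call in those fits, Bdh1, the mitochondrial enzyme that interconverts the ketone bodies, had the lowest p. It stood at 66.9, 75.2 and 103 CPM in vehicle and 25.1, 30.3 and 40.3 CPM in relapse tumours (-1.36 ± 0.19, adjusted p = 0.000619). Cbr2, a carbonyl reductase, fell from 70.8, 164 and 243 to 9.36, 22.5 and 29.9 CPM (-2.75 ± 0.42, adjusted p = 0.00115). Both groups stood clear of each other in these genes. Higd1a, a mitochondrial protein induced by hypoxia, was at 30.6, 40.9 and 64.3 CPM in vehicle and 11.1, 16.8 and 18.4 CPM in relapse tumours (-1.49 ± 0.21, adjusted p = 0.000653). Fntb, the beta subunit of the transferase that attaches farnesyl to RAS and other proteins, was at 25.8, 28.9 and 34.8 CPM in vehicle and 14.8, 16.4 and 18.2 CPM in relapse tumours (-0.85 ± 0.12, adjusted p = 0.000653). Car12, a membrane carbonic anhydrase, was at 134, 207 and 399 CPM in vehicle and 26.3, 72.6 and 88.9 CPM in relapse tumours (-1.86 ± 0.29, adjusted p = 0.00120). None of these 3 overlapped between the groups either. Gmppb, a subunit of the enzyme that makes GDP-mannose, fell by less, from 16.8, 18.2 and 24.0 to 9.44, 11.1 and 13.2 CPM (-0.76 ± 0.13, adjusted p = 0.00211), as did Lonrf1, a RING finger gene, from 25.5, 32.9 and 47.0 to 19.4, 21.3 and 24.4 CPM (-0.68 ± 0.11, adjusted p = 0.00210).

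Some of the largest falls held without vehicle 2, 6 and 7 but were far larger with them. Stk32a, a kinase gene, was at 142, 113 and 249.6 CPM in vehicle 2, 6 and 7, at 1.00 to 6.96 CPM in vehicle 1, 3, 4 and 5, and at 0.134, 0.334 and 0.778 CPM in the relapse group. It changed by -7.58 ± 1.20 (adjusted p = 0.00143) with all tumours and -3.13 (adjusted p = 0.0179) without those 3, and its call was lost with voom and the title code taken as random (adjusted p = 0.118). Plekhd1 was at 2.93, 15.9 and 58.8 CPM in vehicle and 0.517, 0.847 and 1.85 CPM in relapse tumours, with changes of -4.46 ± 0.67 (adjusted p = 0.00106) and -2.63 (adjusted p = 0.0118). Every relapse tumour still lay below every vehicle tumour in both. Cst3, the protease inhibitor cystatin C, was at 1224 to 2072 CPM in vehicle 2, 6 and 7, 144 to 327 CPM in the remaining vehicle and 68.6, 90.1 and 199 CPM in relapse tumours (-3.02 ± 0.53, adjusted p = 0.00264; -1.13, adjusted p = 0.0448 without those 3). Atp2a3, a calcium pump of the endoplasmic reticulum, changed by -3.54 ± 0.64 (adjusted p = 0.00286) and by -1.88 (adjusted p = 0.0465) without them. Ang5, an angiogenin gene, and its near copy Ang3 had the same counts in every tumour, so their reads cannot be told apart; their shared value was -4.06 ± 0.71 (adjusted p = 0.00259).

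A second set of large falls rested mostly on vehicle 3. Elovl4, which elongates very long chain fatty acids, was at 3834 CPM in vehicle 3, 13.6 to 242 CPM in the other vehicle and 21.1, 45.1 and 138 CPM in relapse tumours (-3.34 ± 1.03, adjusted p = 0.0419). Its call was also lost without any 1 of relapse 2 to 7 (adjusted p 0.0586 to 0.0768). Far2, which reduces fatty acids to alcohols, was at 1164 CPM in vehicle 3, 63.6 CPM in vehicle 7 and 1.13 to 4.48 CPM in the remaining 5 (-6.67 ± 1.47, adjusted p = 0.00794). The relapse tumours, at 0.789, 1.65 and 2.99 CPM, overlapped with those 5. Cyp17a1, an enzyme of steroid hormone synthesis, was at 136 CPM in vehicle 3, against 0.0457 to 6.02 CPM in the rest of that group (-4.50 ± 1.26, adjusted p = 0.0263). Aadacl3, Pdss1 and Acoxl had the same shape, with 132, 272 and 36.4 CPM in vehicle 3 and at most 2.24, 12.4 and 1.54 CPM in any other vehicle tumour. Without vehicle 3 the adjusted p was 0.348 for Elovl4, 0.0279 for Far2, 0.488 for Cyp17a1, 0.656 for Aadacl3, 0.525 for Pdss1 and 0.961 for Acoxl. Far2 thus kept its call, with a log2 fold change of -2.84. Cyp17a1 was also lost without relapse 6 (0.0523), Pdss1 without any 1 of relapse 1 to 7 (0.0503 to 0.0634) and Acoxl without any 1 of relapse 1, 2, 3, 5, 6 and 7 (0.0610 to 0.0701).

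Other large changes were in genes whose call ended without vehicle 2, 6 and 7. Ctsr, a placental cathepsin gene, was at 117 to 2298 CPM in those 3, 0.0457 to 2.32 CPM in the other vehicle and 0.0446, 0.200 and 0.676 CPM in relapse tumours (-10.87 ± 2.04, adjusted p = 0.00379; -1.33, adjusted p = 0.410 without them). Fgb, a fibrinogen chain (-6.48 ± 1.32, adjusted p = 0.00576; -1.18, adjusted p = 0.443), and Gria4, a glutamate receptor subunit (-6.30 ± 1.36, adjusted p = 0.00733; 0.14, adjusted p = 0.938), had the same pattern. In vehicle 2, 6 and 7 Fgb was at 67.8 to 219 CPM and Gria4 at 174 to 268 CPM, and in both genes the other vehicle tumours overlapped with the relapse tumours. On the higher side, Glycam1, a mucin of milk and of lymph node vessels, was at 0.0915, 5.22 and 36.9 CPM in vehicle and 3.39, 80.8 and 1866 CPM in relapse tumours (5.31 ± 1.43, adjusted p = 0.0217; 4.76, adjusted p = 0.119 without the 3, 0.151 with summed counts and 0.0674 without relapse 3). March10, a ubiquitin ligase gene, was at 89.6 CPM in relapse 7 and overlapped with the vehicle tumours elsewhere (4.87 ± 1.26, adjusted p = 0.0175; 0.112 without the 3, 0.194 with summed counts and 0.767 without relapse 7).

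**Figure D3:**
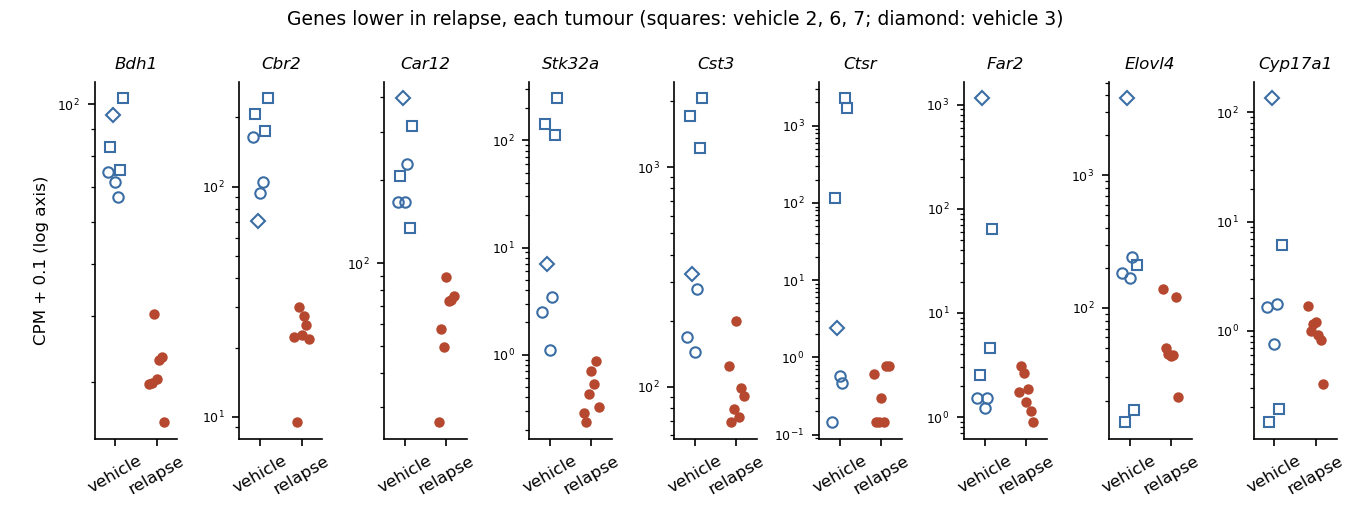
CPM (log axis, with 0.1 added) of 9 genes lower in relapse tumours, in each vehicle (open) and relapse (filled) tumour; squares mark vehicle 2, 6 and 7 and a diamond marks vehicle 3. Bdh1, Cbr2 and Car12 are separated in every tumour, Stk32a, Cst3 and Ctsr are highest in vehicle 2, 6 and 7, and Far2, Elovl4 and Cyp17a1 are highest in vehicle 3.

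Gene groups are described next, with pathways first and cell types and processes after them. Their counts are set beside the background of 5.42% higher and 5.8% lower calls. The members of a list were chosen with earlier results of these data known, so that a list's count describes it and tests nothing. After each list the counts without vehicle 2, 6 and 7 stand in brackets.

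Of 41 imprinted genes tested, 10 rose and 2 fell [3 and 1], with a median log2 fold change of 0.17 against -0.02 over all genes. Besides Igf2, the zinc finger gene Zim1 rose from 0.0467, 1.05 and 2.09 to 1.40, 10.4 and 12.8 CPM (3.29 ± 0.63, adjusted p = 0.00412). Ndn, or necdin, a growth suppressor, was at 0.457, 0.823 and 1.65 CPM in vehicle and 2.42, 4.59 and 5.53 CPM in the relapse group (2.02 ± 0.45, adjusted p = 0.00850), and lost its call without vehicle 2, 6 and 7 (adjusted p = 0.0847) and with summed counts (0.0662). H19, the noncoding RNA beside Igf2, was picked with its values known: it stood at 6.91, 101 and 241 CPM in vehicle and 271, 329.9 and 525 CPM in relapse tumours, which did not overlap, and yet its adjusted p was 0.0647 (1.69 ± 0.58). Copg2 fell, from 77.4, 88.4 and 93.1 to 60.2, 62.7 and 76.8 CPM (-0.37 ± 0.077, adjusted p = 0.00620; 0.05002, just above the threshold, with summed counts). Of 53 EGF, neuregulin, FGF and IGF family genes, 4 rose and 8 fell [5 and 0] (median -0.25). Fgf23 (4.27, described above) and Pappa2 (below) were not on this list, so its counts leave out both rises. That balance turned to 8 higher and 3 lower with voom and quality weights (median 0.053), and the median was 0.063 without vehicle 2, 6 and 7. Fgf9, an FGF ligand, was at 0.503, 0.710 and 1.17 CPM in vehicle and 1.11, 3.85 and 6.46 CPM in relapse tumours (2.29 ± 0.39, adjusted p = 0.00210). Igfbp5, an IGF-binding protein, fell from 4419, 7983 and 19203 to 3302, 3536 and 4555 CPM (-1.31 ± 0.30, adjusted p = 0.00975), but was at -0.57 (adjusted p = 0.158) without vehicle 2, 6 and 7. In both genes the groups met only at the edge, where relapse 5 lay inside the vehicle range. Pappa2 and Pappa, proteases that cut IGF-binding proteins, both rose: Pappa2 was at 0.0946, 0.366 and 0.533 CPM in vehicle and 0.484, 1.22 and 20.9 CPM in relapse tumours (3.79 ± 0.82, adjusted p = 0.00726; 0.0847 with summed counts), and Pappa at 1.601, 16.9 and 34.8 CPM in vehicle and 41.9, 77.8 and 199.6 CPM in relapse tumours (2.41 ± 0.55, adjusted p = 0.00900).

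WNT ligands bind frizzled receptors and, in the canonical branch, stabilise beta-catenin. Of 63 WNT pathway genes, 15 rose and 2 fell [2 and 0], with a median of 0.38. With the DESeq2 test 17 were higher and 4 lower, and the median was 0.18. In the main test without vehicle 2, 6 and 7 the median was 0.47, and 2 were called, both higher: the ligand Wnt16 and the extracellular binder Sfrp4 described above. The steepest member, Dkk4, a secreted inhibitor of WNT signalling, had 0 counts in all 7 vehicle tumours and was at 0.169, 0.549 and 15.2 CPM in relapse tumours, the highest in relapse 2 and all others at or below 0.629 CPM. Its median was at least 27.4-fold higher than the 0.0200 CPM to which 3 counts over the vehicle group come (adjusted p = 0.0111; 0.0624 without vehicle 2, 6 and 7 and 0.0698 with summed counts). The list's median does not change with Dkk4 at that bound. Wnt11, a ligand of mainly noncanonical signalling, was at 0.373, 1.13 and 3.44 CPM in vehicle and 2.42, 3.39 and 9.58 CPM in relapse tumours (1.89 ± 0.44, adjusted p = 0.00975; 0.0761 without the 3). Axin2, a feedback target of canonical signalling picked after its values were seen, was at 5.06, 11.9 and 120 CPM in vehicle and 69.8, 151 and 395 CPM in relapse tumours, and its change of 1.73 ± 0.76 did not pass the test (adjusted p = 0.144). Vehicle 1, 4 and 5 lay within the relapse range, and the other 4 vehicle tumours far below it.

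Hedgehog ligands from epithelium act on stroma through the patched receptors and GLI factors. Of 20 hedgehog pathway genes 4 rose and 1 fell [2 and 0] (median 0.089). The ligand Shh was at 0, 0.320 and 4.44 CPM in vehicle and 6.72, 15.3 and 27.6 CPM in relapse tumours, without overlap (3.72 ± 1.02, adjusted p = 0.0229; 0.123 without the 3). The target Gli1 was at 0.426, 2.19 and 4.99 CPM in vehicle and 2.03, 6.69 and 9.44 CPM in the relapse group (1.72 ± 0.55, adjusted p = 0.0466), and lost its call in 15 of the 25 fits, with adjusted p-values of 0.0565 to 0.0905 without 1 of vehicle 1, 2, 3, 6 or 7 and 0.0588 to 0.0865 without 1 of relapse 1 to 6. Gas1, a hedgehog co-receptor, went the other way, at 14.9, 56.4 and 364 CPM in vehicle and 8.96, 17.3 and 26.7 CPM in relapse tumours (-3.07 ± 0.65, adjusted p = 0.00687; 0.269 without the 3, in which it was at 169 to 364 CPM). Of Ptch1, Shh, Gli1 and Gas1, Ptch1 alone kept its call in all 25 alternative fits without a muscle term.

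TGF-beta and bone morphogenetic proteins signal through paired receptor kinases and SMAD factors. Of 61 genes of this pathway 9 rose and 7 fell [3 and 0], and the sign of their median depended on the scaling (0.0044, and 0.085 with upper quartile factors). The receptor Acvr2b was at 1.12, 2.09 and 2.74 CPM in vehicle and 3.38, 4.42 and 4.84 CPM in relapse tumours (1.12 ± 0.23, adjusted p = 0.00563; 0.0569 without vehicle 2, 6 and 7). The ligand Bmp4 was at 0.520, 1.42 and 3.89 CPM in vehicle and 3.95, 5.61 and 51.1 CPM in relapse tumours (2.82 ± 0.68, adjusted p = 0.0118; 0.0726 without the 3 and 0.0786 with summed counts). Neither gene overlapped between the groups. Of 30 YAP and TEAD targets 3 rose and 0 fell (1 at an unadjusted p under 0.05; DESeq2 0, voom 0) [2 and 0], of which Ankrd1 was the steepest.

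Matrix genes changed in both directions, and the medians of their lists moved upward when the vehicle tumours rich in smooth muscle RNA were left out. Among 42 matrix proteoglycans and glycoproteins 10 rose and 3 fell [4 and 0]; their median moved from -0.072 to 0.93 without vehicle 2, 6 and 7, where all genes had a median of 0.019. Of 23 elastic and microfibril genes 5 rose and 1 fell [3 and 0], with medians of 0.17 and 1.00. Of 41 collagens 5 rose and 2 fell [0 and 0] (-0.12 and 0.80). Of 35 genes of progenitor fibroblasts 6 rose and 2 fell [5 and 0] (0.077 and 0.98). In the smaller set the 4 lists had no lower call and the collagens no call, against 1.32% lower and 3.28% either way over all genes, so counts this small describe the lists and set them apart from nothing.

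Asporin, Aspn, a small leucine-rich proteoglycan, was at 12.5, 15.9 and 30.9 CPM in vehicle and 15.3, 48.1 and 96.5 CPM in relapse tumours (1.605 ± 0.32, adjusted p = 0.00562; 0.0556 with summed counts). Thrombospondin 3, Thbs3, rose from 3.25, 4.26 and 6.22 to 8.79, 14.04 and 19.9 CPM without overlap (1.63 ± 0.34, adjusted p = 0.00643; 0.0568 with summed counts). Lubricin, encoded by Prg4 and picked with its values known, was at 1.63, 2.61 and 5.49 CPM in vehicle and 7.62, 14.5 and 27.8 CPM in relapse tumours (2.33 ± 0.38, adjusted p = 0.00176). The groups did not overlap in Thbs3 and Prg4, and for Aspn 1 or more relapse tumours lay in the vehicle range. The microfibril protein Mfap5 had 3.13, 4.48 and 7.24 CPM in vehicle and 7.98, 19.8 and 26.5 CPM in relapse tumours, and Fbln1, fibulin 1, had 15.6, 21.9 and 29.4 CPM in vehicle and 25.8, 67.9 and 113 CPM in relapse tumours; without vehicle 2, 6 and 7 they were at 1.80 (adjusted p = 0.0229) and 1.56 (adjusted p = 0.0457). Osr2, a transcription factor of connective tissue, was at 0, 0.142 and 0.586 CPM in vehicle and 0.387, 0.802 and 2.94 CPM in relapse tumours (2.897 ± 0.58, adjusted p = 0.00554). Eln, elastin, was the opposite case: it was at 344 to 649.9 CPM in vehicle 2, 6 and 7, 8.09 to 15.6 CPM in the other vehicle and 9.58, 25.4 and 44.0 CPM in relapse tumours, and its log2 fold change turned from -3.04 ± 0.85 (adjusted p = 0.0256) to 1.00 (adjusted p = 0.190) without them. The main fibrillar collagens, picked by name, did not pass the test: Col1a1 was at 0.80 (adjusted p = 0.266) and Col3a1 at 0.16 (adjusted p = 0.879). Vehicle 2 and vehicle 6 each carried the call of Eln, whose adjusted p was 0.0720 and 0.0514 without them. Of 53 matrix proteases and their inhibitors 6 rose and 5 fell [2 and 2]. Within the ADAMTS proteases Adamts6 rose, whereas Adamts8 fell from 6.98, 12.7 and 19.2 to 3.79, 5.13 and 8.01 CPM (-1.29 ± 0.21, adjusted p = 0.00151) and Adamts1 from 105, 122 and 627 to 55.2, 86.3 and 97.7 CPM (-1.35 ± 0.33, adjusted p = 0.0133). The highest Adamts1 level was in vehicle 2, and the other vehicle tumours also lay above every relapse tumour.

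**Figure D4:**
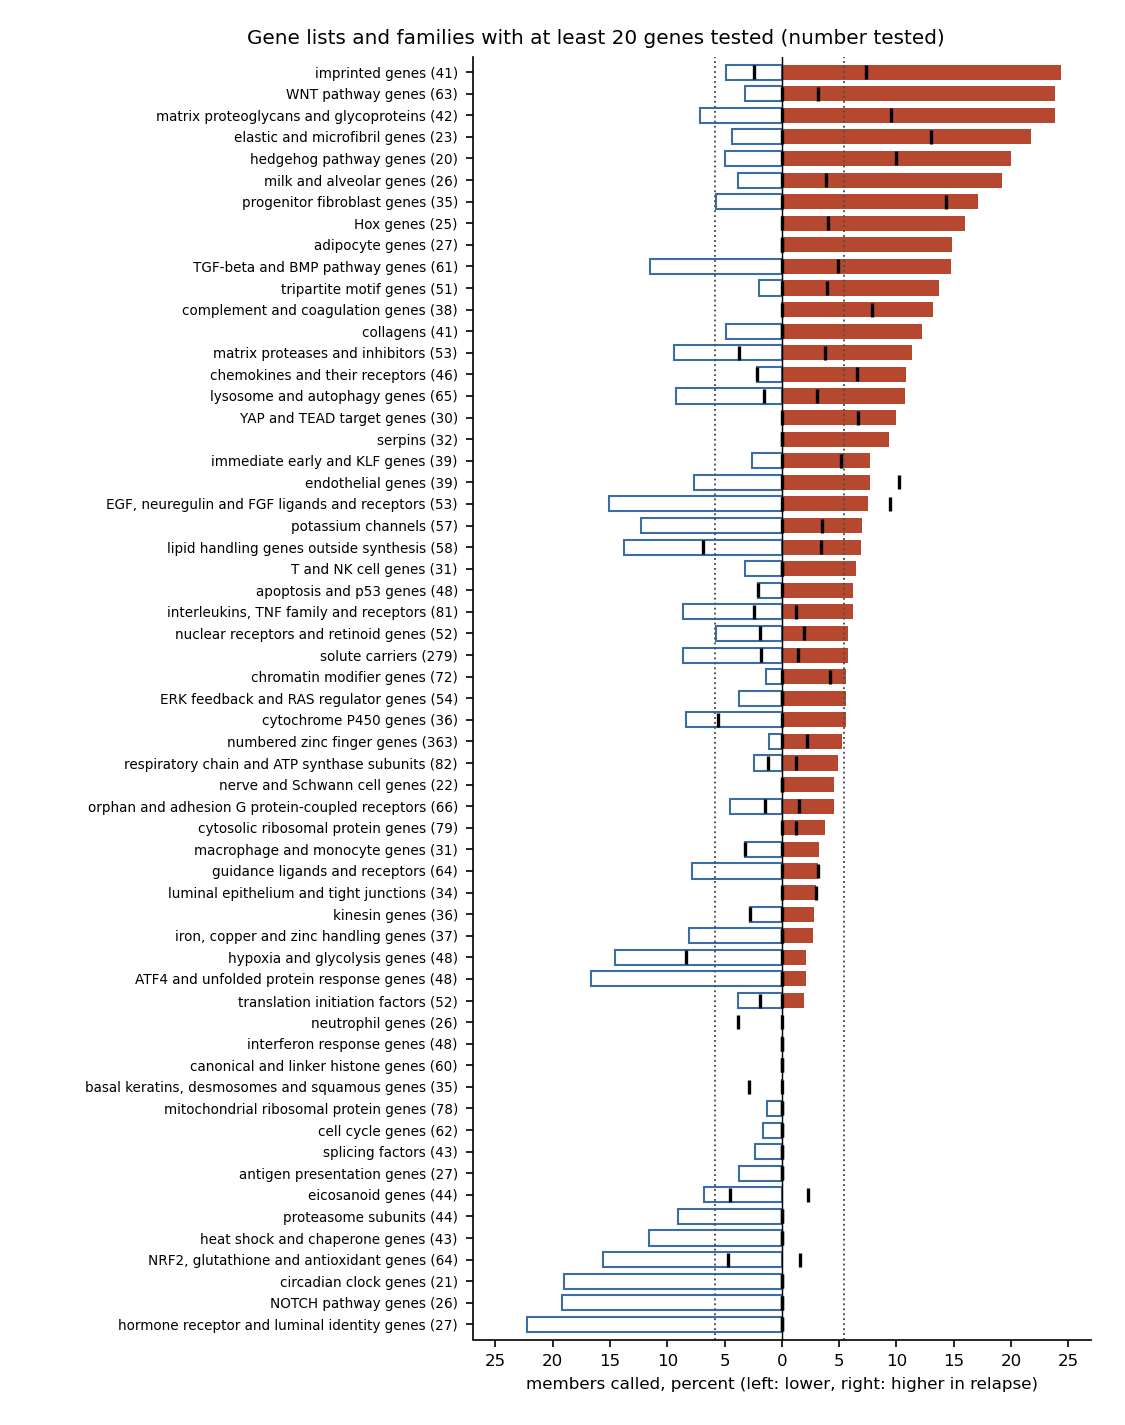
Share of the tested members of each gene list or family with at least 20 genes tested, all but 1 of them, that was called higher (right, filled bars) or lower (left, open bars) in relapse tumours, in percent; the dotted lines are the shares over all genes (5.42% and 5.8%), and black marks give the shares without vehicle 2, 6 and 7. Imprinted, WNT and matrix glycoprotein genes head the higher shares and hormone receptor and luminal identity genes the lower ones, and without vehicle 2, 6 and 7 most lists lose most of their calls.

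Vessel and clotting genes were mixed. Of 39 endothelial genes 3 rose and 3 fell [4 and 0] (median 0.067; 0.68 without vehicle 2, 6 and 7). Besides Esm1, P-selectin, Selp, which tethers leukocytes, rose from 1.35, 3.20 and 6.48 to 7.83, 12.1 and 20.9 CPM without overlap (1.87 ± 0.43, adjusted p = 0.00925; 0.0832 without the 3), while the VEGF receptor Flt1 fell from 107, 137 and 187 to 51.0, 74.7 and 112 CPM (-0.85 ± 0.20, adjusted p = 0.00962; 0.0799 without the 3). Kdr, the main VEGF receptor, and Pecam1, picked by name, were at -0.14 (adjusted p = 0.780) and 0.12 (adjusted p = 0.828). Among 38 complement and coagulation genes 5 rose and 0 fell (2 at an unadjusted p under 0.05; DESeq2 0, voom 0) [3 and 0], with a median of 0.39. Thrombomodulin, Thbd, an anticoagulant receptor, was at 4.25, 8.43 and 11.99 CPM in vehicle and 10.3, 25.99 and 29.1 CPM in relapse tumours (1.52 ± 0.29, adjusted p = 0.00439). The C1 inhibitor Serping1, a brake on complement, was at 1.09 ± 0.28 (adjusted p = 0.0156; 0.104 without the 3). C9, of the pore that ends the cascade, is not on that list and fell from 1.96, 5.13 and 6.18 to 0.549, 0.902 and 1.81 CPM without overlap (-2.07 ± 0.35, adjusted p = 0.00211). The fibrinogen chain gene Fgb, described above as lower (-6.48) with a call that ended without the 3, is not on it either. The 0 lower calls thus do not cover all complement and clotting genes.

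Immune lists gave scattered calls. Of 46 chemokine and chemokine receptor genes 5 rose and 1 fell [3 and 1]. Ccl9, a chemokine for myeloid cells, was at 8.78, 18.7 and 39.4 CPM in vehicle and 37.8, 42.4 and 53.3 CPM in the relapse group (1.10 ± 0.22, adjusted p = 0.00527), and its neighbour Ccl6 at 6.17, 15.6 and 33.6 CPM in vehicle and 30.5, 34.4 and 62.5 CPM in relapse tumours (1.29 ± 0.29, adjusted p = 0.00864; 0.0688 without vehicle 2, 6 and 7). Ccr2, the receptor that brings monocytes into tissue, rose from 6.20, 9.96 and 13.7 to 18.9, 26.6 and 34.0 CPM without overlap (1.43 ± 0.39, adjusted p = 0.0240), but not without the 3 (0.0809), with summed counts (0.128) or without vehicle 7 (0.0508). Of 81 interleukin and TNF family genes 5 rose and 7 fell [1 and 2]. Tnfrsf11b, osteoprotegerin, a decoy receptor for RANKL, was at 16.3, 19.4 and 75.6 CPM in vehicle and 56.6, 142 and 319.9 CPM in relapse tumours (2.02 ± 0.43, adjusted p = 0.00719; 0.0686 without the 3), and Il7, a lymphocyte growth factor, at 2.53, 10.8 and 97.7 CPM in vehicle and 0.936, 1.89 and 4.34 CPM in relapse tumours (-4.03 ± 0.74, adjusted p = 0.00331; 0.1 without the 3). The innate receptor Tlr2, picked after its values were seen, fell from 21.8, 34.6 and 66.1 to 13.2, 21.4 and 26.3 CPM (-1.02 ± 0.25, adjusted p = 0.0123). Among 31 macrophage genes 1 rose and 1 fell [0 and 1]. Of 48 interferon response genes edgeR called 0 (1 at an unadjusted p under 0.05, DESeq2 0 higher and 1 lower, voom 0 and 0), and of 26 neutrophil genes also 0 (3 at an unadjusted p under 0.05, DESeq2 1 higher and 0 lower, voom 0 and 1).

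Epithelial lists differed among themselves. Of 27 hormone receptor and luminal identity genes 0 rose (4 at an unadjusted p under 0.05; DESeq2 2, voom 1) and 6 fell [0 and 0] (median -0.44); the median was 0.023 without vehicle 2, 6 and 7. Foxa1, a pioneer factor of luminal cells, was at 37.1 to 140.5 CPM in those 3, 2.26 to 7.62 CPM in the other vehicle and 0.490, 1.97 and 3.48 CPM in relapse tumours (-4.196 ± 0.98, adjusted p = 0.0103; 0.482 without the 3). The prolactin receptor Prlr was at 455 to 1303 CPM, 111 to 156 CPM and 69.6, 107 and 151 CPM in the same order (-2.17 ± 0.56, adjusted p = 0.0185; 0.739 without the 3, 0.0543 without vehicle 6 and 0.0573 without vehicle 7). In both genes the 4 other vehicle tumours overlapped with the relapse tumours. Of 26 NOTCH pathway genes 0 rose (0 at an unadjusted p under 0.05; DESeq2 0, voom 0) and 5 fell [0 and 0] (median -0.20). The NOTCH target Hey2 fell from 4.27, 23.3 and 71.3 to 1.47, 3.04 and 5.55 CPM (-3.17 ± 0.59, adjusted p = 0.00356; -1.93, adjusted p = 0.0545 without the 3). Among 26 milk and alveolar genes 5 rose and 1 fell [1 and 0] (median 0.43), with wide spreads: Wap itself was at 0.137, 2.01 and 9.40 CPM in vehicle and 2.89, 19.2 and 262 CPM in relapse tumours (4.32 ± 1.25, adjusted p = 0.0303; 0.167 without the 3, 0.0577, 0.0577 and 0.0609 without each of them, 0.124 without relapse 3 and 0.189 with summed counts). Of 35 basal keratin, desmosome and squamous genes edgeR called 0 (6 at an unadjusted p under 0.05, DESeq2 0 higher and 3 lower, voom 0 and 2).

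Several stress and metabolic lists had more lower than higher calls. Among 48 hypoxia and glycolysis genes 1 rose and 7 fell [0 and 4] (median -0.36). Hif1a, the oxygen-regulated transcription factor, stood at 336, 418 and 563 CPM in vehicle and 198, 208 and 280.2 CPM in relapse tumours, without overlap (-0.93 ± 0.16, adjusted p = 0.00218). Vhl, the ubiquitin ligase subunit that marks it for breakdown, was at 20.5, 24.1 and 34.2 CPM in vehicle and 14.8, 16.0 and 19.5 CPM in relapse tumours (-0.66 ± 0.14, adjusted p = 0.00687; 0.0860 without the 3). Stc2, a glycoprotein hormone induced by stress, was at 138 to 185 CPM in vehicle 2, 6 and 7 and 15.9 to 25.3 CPM in the rest of that group, against 10.2, 12.04 and 15.3 CPM in relapse tumours (-2.72 ± 0.53, adjusted p = 0.00457; -0.64, adjusted p = 0.113 without the 3). Of 64 NRF2, glutathione and antioxidant genes 0 rose (2 at an unadjusted p under 0.05; DESeq2 1, voom 2) and 10 fell [1 and 3] (median -0.33), among them Cbr2 and Gstk1, a mitochondrial glutathione transferase, at 7.09, 14.8 and 25.2 CPM in vehicle and 4.29, 5.99 and 9.49 CPM in relapse tumours (-1.28 ± 0.31, adjusted p = 0.0118; 0.0554 without the 3). Of 48 ATF4 and unfolded protein response genes 1 rose and 8 fell [0 and 0]; Psph, the last enzyme of serine synthesis, was at 9.44, 18.8 and 55.3 CPM in vehicle and 6.49, 7.84 and 9.30 CPM in relapse tumours (-1.39 ± 0.31, adjusted p = 0.00887; 0.0504 without the 3). Of 43 heat shock genes 0 rose (0 at an unadjusted p under 0.05; DESeq2 0, voom 1) and 5 fell [0 and 0], the HSP110 family gene Hspa4 from 468, 510.1 and 808 to 300.3, 369 and 426 CPM (-0.61 ± 0.12, adjusted p = 0.00495; 0.0504 without the 3). Of 44 proteasome subunits 0 rose (0 at an unadjusted p under 0.05; DESeq2 0, voom 0) and 4 fell [0 and 0], and 39 had a negative log2 fold change, as did 8242 of all 15792 genes.

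Of 58 genes of lipid handling outside synthesis 4 rose and 8 fell [2 and 4], and of 27 adipocyte genes 4 rose and 0 fell (0 at an unadjusted p under 0.05; DESeq2 0, voom 0) [0 and 0] (median 0.85). Angptl4, an inhibitor of lipoprotein lipase, was at 17.6, 28.4 and 36.1 CPM in vehicle and 28.0, 63.7 and 153 CPM in relapse tumours (1.34 ± 0.31, adjusted p = 0.00912; 0.0909 with summed counts). Cpt1b, the muscle form of the enzyme that brings fatty acids into mitochondria, was at 1.17, 2.66 and 6.34 CPM in vehicle and 2.94, 11.01 and 52.97 CPM in relapse tumours (2.74 ± 0.51, adjusted p = 0.00360; 0.0569 with summed counts), and relapse 4 had 2.94 CPM. Among 65 lysosome and autophagy genes 7 rose and 6 fell [2 and 1]. Atg14, which directs the autophagy lipid kinase, rose from 12.99, 15.4 and 19.4 to 22.4, 26.2 and 28.5 CPM without overlap (0.66 ± 0.11, adjusted p = 0.00176). Of 48 apoptosis and p53 genes 3 rose and 1 fell [0 and 1]. The 1 that fell, Casp1, encodes an inflammatory caspase, which was at 75.9, 97 and 173 CPM in vehicle and 40.1, 57.6 and 71.9 CPM in relapse tumours (-0.95 ± 0.20, adjusted p = 0.00719; 0.0875 without vehicle 2, 6 and 7). Gdpd3, a lysophospholipase D picked after its values were seen, rose from 20.4, 34.1 and 49.7 to 79.8, 98.8 and 121 CPM without overlap (1.56 ± 0.25, adjusted p = 0.00143).

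Of 279 solute carriers 16 rose and 24 fell [4 and 5]. Slc25a27, a mitochondrial carrier of the uncoupling protein family, was at 6.72, 9.74 and 12.1 CPM in vehicle and 16.0, 24.8 and 31.0 CPM in relapse tumours, without overlap (1.23 ± 0.20, adjusted p = 0.00143). Slc40a1, ferroportin, the iron exporter, was at 18.8, 39.6 and 50.9 CPM in vehicle and 51.8, 78.6 and 102 CPM in relapse tumours (1.04 ± 0.26, adjusted p = 0.0149; 0.128 without vehicle 2, 6 and 7). Both rose in all 7 relapse tumours above the highest vehicle tumour. Of 57 potassium channel genes 4 rose and 7 fell [2 and 0]; Kcna5, a voltage-gated channel, was at 0.0933, 0.305 and 1.10 CPM in vehicle and 1.40, 1.81 and 2.54 CPM in relapse tumours (1.85 ± 0.44, adjusted p = 0.0123). Among guidance genes, Sema6c, a semaphorin, was at 1.19, 2.15 and 2.94 CPM in vehicle and 2.71, 5.77 and 10.1 CPM in the relapse group (1.58 ± 0.37, adjusted p = 0.0110), and of 64 such genes 2 rose and 5 fell [2 and 0].

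Among transcription factors, of 25 Hox genes 4 rose and 0 fell (1 at an unadjusted p under 0.05; DESeq2 1, voom 0) [1 and 0], with a median of 0.91. The log2 fold change was positive in 19 of the 25, and in 7550 of all 15792 genes. Hoxa5 was at 0.137, 0.5678 and 0.962 CPM in vehicle and 1.74, 2.59 and 4.23 CPM in relapse tumours, without overlap (2.37 ± 0.50, adjusted p = 0.00677; 0.0612 without vehicle 2, 6 and 7). Hox genes mark position along the body axis in development, and whether their levels followed the last label of the titles was not tested. Of 363 numbered zinc finger genes 19 rose and 4 fell [8 and 0] (6.34% called, below the 11.2% of all genes). Zfp874a, the neighbour and near copy of Zfp874b, was at 5.86, 6.77 and 8.04 CPM in vehicle and 9.38, 12.1 and 18.6 CPM in the relapse group (0.90 ± 0.16, adjusted p = 0.00273), and no source used here says how reads shared by the pair were counted. Of 39 immediate early and KLF genes 3 rose and 1 fell [2 and 0]. Besides Klf11 the MYC family member Mycn rose from 0.366, 0.392 and 0.994 to 1.78, 2.25 and 2.84 CPM without overlap (2.21 ± 0.37, adjusted p = 0.00210). Wt1, a zinc finger transcription factor picked after its values were seen, was at 0.0467, 0.137 and 0.367 CPM in vehicle and 0.668, 1.14 and 6.64 CPM in relapse tumours, also without overlap (3.69 ± 0.53, adjusted p = 0.000653). Arid5a, an RNA- and DNA-binding regulator, was at 17.6, 21.6 and 29.2 CPM in vehicle and 28.8, 37.6 and 43.6 CPM in the relapse group (0.70 ± 0.12, adjusted p = 0.00264), and of 72 chromatin regulators, with which it was listed, 4 rose and 1 fell [3 and 0]. Of 21 clock genes 0 rose (1 at an unadjusted p under 0.05; DESeq2 0, voom 0) and 4 fell [0 and 0]. Clock itself was at 198, 273 and 519.8 CPM in vehicle and 131, 155 and 179 CPM in relapse tumours (-0.93 ± 0.20, adjusted p = 0.00719; 0.0891 without the 3).

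Large housekeeping families gave few calls. The counts were 1 of 62 cell cycle genes, 0 of 60 histone genes (6 at an unadjusted p under 0.05, DESeq2 2 higher and 0 lower, voom 0 and 0), 1 of 78 mitochondrial ribosomal protein genes and 1 of 43 splicing factors. Of 82 respiratory chain subunits 4 rose and 2 fell [1 and 1]. Cox6a2, a muscle subunit of cytochrome oxidase, was at 0, 0.0457 and 0.687 CPM in vehicle, 0 CPM in relapse 4 and 2.27 to 16.8 CPM in the other relapse tumours. Its change was 5.50 ± 1.15 (adjusted p = 0.00673; 0.0566 without vehicle 2, 6 and 7 and 0.0503 with summed counts). Of 79 cytosolic ribosomal protein genes 3 rose and 0 fell (1 at an unadjusted p under 0.05; DESeq2 0, voom 1) [1 and 0], and Rpl3l, the striated muscle form of Rpl3, was the steepest at 4.85 ± 0.95 (adjusted p = 0.00473), with 0.0499 CPM in relapse 4 and 2.905 CPM as the relapse median. These shares lie below the 11.2% called over all genes.

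Other ways of testing ended more of the calls given here. Voom with quality weights ended 22 (adjusted p 0.0537 to 0.762): beside Abra these were Aadacl3, Acoxl, Cox6a2, Ctsr, Cyp17a1, Eln, Elovl4, Far2, Fgb, Foxa1, Gas1, Gli1, Glycam1, Gria4, Il7, March10, Pdss1, Prlr, Psph, Stc2 and Wap. Voom that took the title code as random ended 20 (0.0524 to 0.761), Abra and Stk32a and, of the former, all but Gli1, Psph and Stc2. The correlation between tumours of one title code was estimated at -0.0397 in that fit, so these losses do not show that such tumours were alike. DESeq2 ended those of Aadacl3, Acoxl, Cyp17a1, Elovl4, March10 and Pdss1 (0.292 to 0.924), and a fit of the vehicle and relapse tumours alone those of Acoxl, Cyp17a1, Eln, Elovl4 and Pdss1 (0.0615 to 0.0870). The replicate block ended 15 calls, whose genes are not listed here. The balance within lists also moved. With voom and quality weights the higher and lower calls were 9 and 3 among the guidance genes, 5 and 2 among the interleukin and TNF family genes, 6 and 0 among the potassium channels, 3 and 4 among the apoptosis and p53 genes and 1 and 0 among the hormone receptor and luminal identity genes, each the other way round from the counts above. DESeq2 gave 11 higher and 8 lower among the interleukin and TNF family genes and 9 and 8 among the potassium channels. It gave 5 and 7 among the guidance genes and 3 and 3 among the apoptosis and p53 genes. Among the hormone receptor and luminal identity genes it gave 2 and 6. With upper quartile factors the higher and lower calls were 20 and 15 among the solute carriers.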

How the data were processed

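RNA of 21 mouse mammary tumours was sequenced with a stranded messenger RNA kit, and the authors deposited raw counts per gene in a single annotated table, with a gene width column beside them, per the file headers. The submitters' processing notes name STAR 2.5.2a, SAMtools 1.3.1, Picard 2.9.2, edgeR and the genome build mm10, with no role or order. No source used here names the counting tool, the annotation or the use of strand in counting. In 10202 of 24028 lines an extra cell preceded the values, and the final 25 cells of a line were taken; 14 lines had no symbol and 1175 were at 0 in every tumour.

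Genes were filtered with filterByExpr, scaled with TMM and tested with edgeR 4.0.16 (quasi-likelihood F test, R 4.3.3) on all 21 tumours in 3 groups, relapse minus vehicle and relapse minus stable, and p-values were adjusted over all 15792 genes by the Benjamini-Hochberg method with a threshold of 0.05. Standard errors were taken as the absolute log2 fold change divided by the square root of the F value. CPM used the TMM library sizes, and the width column was not used. Alternatives were upper quartile and DESeq2 scaling, other filters on low counts, DESeq2 1.42.0, limma 3.58.1 voom, counts summed per title code, the title code as a random effect, a replicate block, a skeletal muscle covariate, leaving out vehicle 2, 6 and 7, and leaving out each tumour.

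Genes were named by these rules, over calls that reached a mean log2 CPM of 1, outside the 4 lists left aside and without predicted genes, pseudogenes or receptor segments: the 15 largest changes in each direction called also without vehicle 2, 6 and 7 and with the muscle covariate; the 5 largest in each direction lost without those tumours; and, of lists with at least 3 called members or 25% of them, up to 4 of lowest p whatever their level; the 10 mammary epithelium genes were taken as a summed level only. Genes called without vehicle 2, 6 and 7 irrespective of the covariate, genes called in all 25 fits without a muscle term, and single genes marked so in the text were added after the values had been seen. These rules gave 315 genes, of which the text describes 127, picked with their values known; some named by the rules are not reported here. The genes, lists and tests were chosen with earlier results of these data known. The test was checked on simulated counts of 15699 genes, in which it called 45% of 2-fold and 84% of 4-fold changes, and 3.73% of its calls were false. These counts were drawn independently around 1 mean per gene, apart from the changes set. They thus held neither the difference of vehicle 2, 6 and 7 nor that in muscle RNA, and the rates need not hold for these tumours. No pair of tumours within the vehicle group or within the relapse group had the same counts beyond sampling noise (lowest chi-square per degree of freedom 30.3). Pairs across groups and pairs with a stable tumour were not compared. Total counts per tumour stand at the start of the results. Promoter sequences and gene coordinates came from RefSeq tables, in which 15762 of the genes tested were found.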

Additional observations from a re-analysis of the deposited data

Results flagged for a closer look

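Of 254 pairs of a named gene and a group, 20 (7.87%) had 1 tumour far from the other 6 on the scale of log2 of CPM plus 0.1, with the gap to its neighbour over the whole range above Dixon's 95% critical value for 7 samples, and chance flags about 1 in 20 groups. Each is given with its level, that of its neighbour and that share of the range.

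Relapse 4, the relapse tumour with little skeletal muscle RNA, was the lowest relapse tumour in Abra (0.0499 CPM, next 3.87 CPM, share 0.685), Cox6a2 (0 CPM, next 2.27 CPM, share 0.617) and Rpl3l (0.0499 CPM, next 2.27 CPM, share 0.716). Relapse 2 was far above the rest in Wnt16 and Dkk4 and below it in Samhd1 and Cbr2: Wnt16 (24.3 CPM, next 3.54 CPM, share 0.706), Samhd1 (171 CPM, next 233 CPM, share 0.582), Cbr2 (9.36 CPM, next 21.8 CPM, share 0.726) and Dkk4 (15.2 CPM, next 0.629 CPM, share 0.753). Relapse 5 was the lowest in Zim1 (1.40 CPM, next 5.75 CPM, share 0.633), Mfap5 (7.98 CPM, next 16.4 CPM, share 0.599) and Thbd (10.3 CPM, next 20.6 CPM, share 0.666), the last 2 of them stromal and vessel genes by their known roles. Relapse 7 was the highest in March10 and the lowest in Gli1: March10 (89.6 CPM, next 0.998 CPM, share 0.791) and Gli1 (2.03 CPM, next 5.42 CPM, share 0.635).

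Among the vehicle tumours, vehicle 3 was the highest in Pdss1 (272 CPM, next 12.4 CPM, share 0.843), Acoxl (36.4 CPM, next 1.54 CPM, share 0.616) and Mycn (0.994 CPM, next 0.550 CPM, share 0.61). Vehicle 2 was the highest in Adamts1 and Esm1 and the lowest in Dnajc28: Esm1 (14.6 CPM, next 8.64 CPM, share 0.571), Dnajc28 (7.32 CPM, next 9.59 CPM, share 0.578) and Adamts1 (627 CPM, next 188 CPM, share 0.675). Vehicle 6 was the highest in Zfp874b (17.9 CPM, next 14.6 CPM, share 0.614), and vehicle 5 the lowest in Ang5 (0.916 CPM, next 4.84 CPM, share 0.572), which has the same counts as Ang3. The calls of Pdss1, Acoxl, March10 and Gli1 did not hold in every fit that left out 1 tumour: Pdss1 and Acoxl lost them without vehicle 3 and March10 without relapse 7, whereas Gli1 kept its call without relapse 7 and lost it without others.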

How the results depend on the processing

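The 1772 calls of relapse against vehicle became 527 without vehicle 2, 6 and 7, 955 with counts summed per title code, 23 with the skeletal muscle score as a covariate, 3 with that covariate and without those 3 tumours (chosen after seeing the data), and 976 with an added fold threshold of 2. Leaving out 1 tumour gave 1156 (without vehicle 6) to 2060 (without vehicle 4), and the other alternatives gave 1285 to 2596, within 1.5 times of the main count. Same-numbered tumours correlated between -0.24 and 0.118 and only 1 of 7 vehicle tumours correlated best with its own number. No pairing by number was thus detected, which does not exclude a weaker shared factor. With the replicate block 987 genes were called, 609 higher and 378 lower. The 0 calls between relapse and stable tumours among the 18 genes also came out with DESeq2 and voom, which were added after seeing the data.

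Of 119 called genes named in the text, 66 kept direction and call in each of the 25 fits without a muscle term that tested them, and 15 with the muscle covariate. Some filters left out genes of the text, and such a fit was not counted as a loss. Signs turned for Acoxl with DESeq2 (0.084) and without vehicle 3 (0.047; leaving out 1 tumour gave -3.60 to 0.047), for Gria4 without vehicle 2, 6 and 7 (0.14), for Eln without those 3 (1.00), with voom and quality weights (0.40) and with covariate and removal together (0.74), and for Cox6a2 with the muscle covariate (-0.18) and with covariate and removal together (-0.20); the cause was not tested. Of the medians of 74 lists and families, 40 moved by more than the spread between relapse tumours without vehicle 2, 6 and 7, 19 with the covariate, 5 with upper quartile factors and 0 with summed counts. With the muscle covariate, which nearly follows the groups, 104 of the 119 lost their call: 58 of these kept at least 80% of their log2 fold change, as Dnajc28 did (1.13 to 1.00), 32 kept 50% to 80%, and 14 kept less, as Abra did (5.11 to 0.69). In the 2-fold range the simulated test found under 50% of true changes.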
